A study of Mus musculus with 12 samples.

Results

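The SIBLING proteins are small integrin-binding ligand, N-linked glycoproteins of bone and tooth matrix, and together with the phosphatases and inhibitors that set the balance of phosphate and pyrophosphate they form the machinery with which hypertrophic cartilage and bone deposit mineral. Probe sets were taken by the platform's gene symbol for 9 genes: the SIBLING genes Ibsp, Dmp1, Spp1 and Mepe, the endopeptidase gene Phex, the phosphate and pyrophosphate enzyme genes Alpl, Enpp1 and Phospho1, and the mineralization inhibitor gene Mgp. Of 45101 probe sets on the array, 11 were annotated to these genes, 10 of them with 1 symbol, and they covered 6 genes. The other probe set carried 2 symbols, Zfp652 and Phospho1, and was assigned to neither. The annotation used here paired no probe set with Spp1 or Enpp1, and these 2 genes were not analysed here.

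Primary chondrocytes had been isolated from the tibiae, femurs and humeri of CD1 mouse embryos at E15.5, plated as monolayers, and kept with 100 nM of the synthetic glucocorticoid dexamethasone (DEX) or with its solvent DMSO (vehicle). RNA was taken after 6 or 24 hrs and hybridized to Affymetrix MOE 430 2.0 arrays, 3 arrays in each of the 4 groups DEX 6 hrs, vehicle 6 hrs, DEX 24 hrs and vehicle 24 hrs. The groups shared strain, tissue, age and a medium with β-glycerophosphate and ascorbic acid, which supply organic phosphate and help collagen mature, and the 6 and 24 hrs arrays were hybridized on different days. The methods speak of 3 independent cell isolations, and the arrays of each group carry the replicate numbers 1, 2 and 4. A culture from whole long bones can hold perichondrial and bone-forming cells beside chondrocytes, and in RNA of a whole culture more cells of a type and more RNA per cell cannot be told apart.

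Mineral in the growth plate starts in vesicles that bud from hypertrophic chondrocytes and spreads onto collagen. Tissue-nonspecific alkaline phosphatase (Alpl) hydrolyses pyrophosphate, an inhibitor of crystal growth, and releases phosphate, and Phospho1 frees phosphate from phosphocholine and phosphoethanolamine inside the vesicles. Enpp1 makes pyrophosphate from ATP, and Mgp, a vitamin K-dependent Gla protein, keeps cartilage and arteries free of mineral. Ibsp (bone sialoprotein) and Dmp1 (dentin matrix protein 1) are acidic phosphoproteins that bind calcium and integrins, Mepe gives rise to a peptide that blocks mineral, and Phex cleaves such peptides. Glucocorticoids act through a nuclear receptor that binds DNA.

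The 4 SIBLING genes among the members lie in one row on mouse chromosome 5 with a further SIBLING gene, Dspp. In RefSeq the protein-coding genes Dspp, Dmp1, Ibsp, Mepe and Spp1 directly follow each other. RefSeq promoter windows of assembly GRCm38.p6, 250 bases before to 50 after a start, were given for 8 of the 9 genes, 11 windows in all. The 250 bases before the start are printed 5′ to 3′ for Ibsp, Dmp1 and Alpl, because these 3 genes had a probe set with every DEX array above every vehicle array at 24 hrs. Ibsp lies at chr5:104299037-104299286 (plus strand), the first Dmp1 start at chr5:104197325-104197574 and the second at chr5:104202367-104202616 (both plus strand), and the Alpl start that holds a match at chr4:137766476-137766725 (minus strand). Capitals mark an arm of the glucocorticoid response element, AGAACA or TGTTCT, and the RUNX site, TGTGGT or ACCACA.
Ibsp: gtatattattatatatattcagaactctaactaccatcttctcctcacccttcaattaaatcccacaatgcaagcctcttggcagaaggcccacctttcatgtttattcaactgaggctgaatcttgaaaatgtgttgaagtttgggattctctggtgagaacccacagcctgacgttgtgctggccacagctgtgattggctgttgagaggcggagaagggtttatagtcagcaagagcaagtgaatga
Dmp1, first start: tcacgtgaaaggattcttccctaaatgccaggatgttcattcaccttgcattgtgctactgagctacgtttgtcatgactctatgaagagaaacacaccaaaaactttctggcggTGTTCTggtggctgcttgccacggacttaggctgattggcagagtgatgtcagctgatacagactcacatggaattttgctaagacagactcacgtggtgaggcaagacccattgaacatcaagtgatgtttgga
Dmp1, second start: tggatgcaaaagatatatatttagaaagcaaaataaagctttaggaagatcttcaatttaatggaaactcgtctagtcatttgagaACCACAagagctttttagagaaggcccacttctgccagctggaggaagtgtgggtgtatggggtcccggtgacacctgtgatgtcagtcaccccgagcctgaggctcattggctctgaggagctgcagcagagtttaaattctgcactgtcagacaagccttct
Alpl: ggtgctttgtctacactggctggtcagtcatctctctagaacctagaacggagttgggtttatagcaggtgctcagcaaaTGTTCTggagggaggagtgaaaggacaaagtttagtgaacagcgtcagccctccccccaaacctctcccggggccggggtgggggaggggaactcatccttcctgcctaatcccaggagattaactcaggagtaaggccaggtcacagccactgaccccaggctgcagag

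Such arms were found, on either strand, in 3 of the 11 windows: in Alpl at 170 to 165 bases before the start, in the first Dmp1 window at 135 to 130 bases before it, and in Ibsp 17 to 22 bases after it, outside the printed stretch. Over all genes 19.0% of 32851 windows held one. The palindrome of AGAACA and TGTTCT with 3 bases between them and at most 1 mismatch was in 0 of the 11 windows and in 0.16% of all windows. RUNX sites stood in 4 of the 11 windows, those of Mepe, Enpp1, the second Dmp1 start and the first Spp1 start, and in 16.8% of all windows. These are matches of letters in short windows and were not tested as sites.

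The unit of all levels below is the linear GC-RMA intensity, from which the expected unspecific binding of each probe has been subtracted. A probe set was tested where the mean of 1 or more of the 4 groups reached 50, which held for 20897 of 45101. Of the 10 member probe sets with 1 symbol 6 passed, 2 of Ibsp, 2 of Dmp1 and 1 each of Alpl and Mgp, and the shared Zfp652 and Phospho1 probe set passed as well. Both Dmp1 probe sets passed through the DEX 24 hrs group alone, so that their being higher there is partly set by the filter, and the 4 other tested member probe sets are counted on their own as well. DEX and vehicle arrays that share a time and a replicate number form a pair, and the difference in log2 intensity was fitted with limma with the 6 pairs as a block. Adjusted p is that of Benjamini and Hochberg over the whole set of tested probe sets, with 0.05 as the threshold, and SE is the moderated standard error.

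At 24 hrs 2 of the 6 tested member probe sets rose with DEX, 1 of Ibsp and the one of Alpl, which is 2 of 4 without those of Dmp1, against 2.15% of all tested probe sets called in either direction and 1.45% called as higher. At 6 hrs 0 of 6 passed, with 1 at an unadjusted p under 0.05 (Mgp), against 0.904% of all tested probe sets called. Over both times 1 of 6 passed, the same Ibsp probe set, against 3.20% of all called. A change of the DEX effect from 6 to 24 hrs, tested as an interaction, passed for 0 of 6, with 4 at an unadjusted p under 0.05, and for 0.00479% of all tested probe sets. Of all 20897 tested probe sets, 2366 had an unadjusted p under 0.05 in limma at 6 hrs, 3575 at 24 hrs and 2674 for the interaction. Without the pairs as a block 0 of the 6 passed at 24 hrs in limma, 4 of them at an unadjusted p under 0.05, against 0.287% of all called in that fit, and the test of the methods, which has no pairs, also gave 0 after adjustment. The member calls rest on the comparison within pairs. With the hybridization day as the block instead, Ibsp 1417485_at kept its call at 24 hrs (adjusted p = 0.011 in limma) and Alpl did not (0.132).

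**Figure D1:**
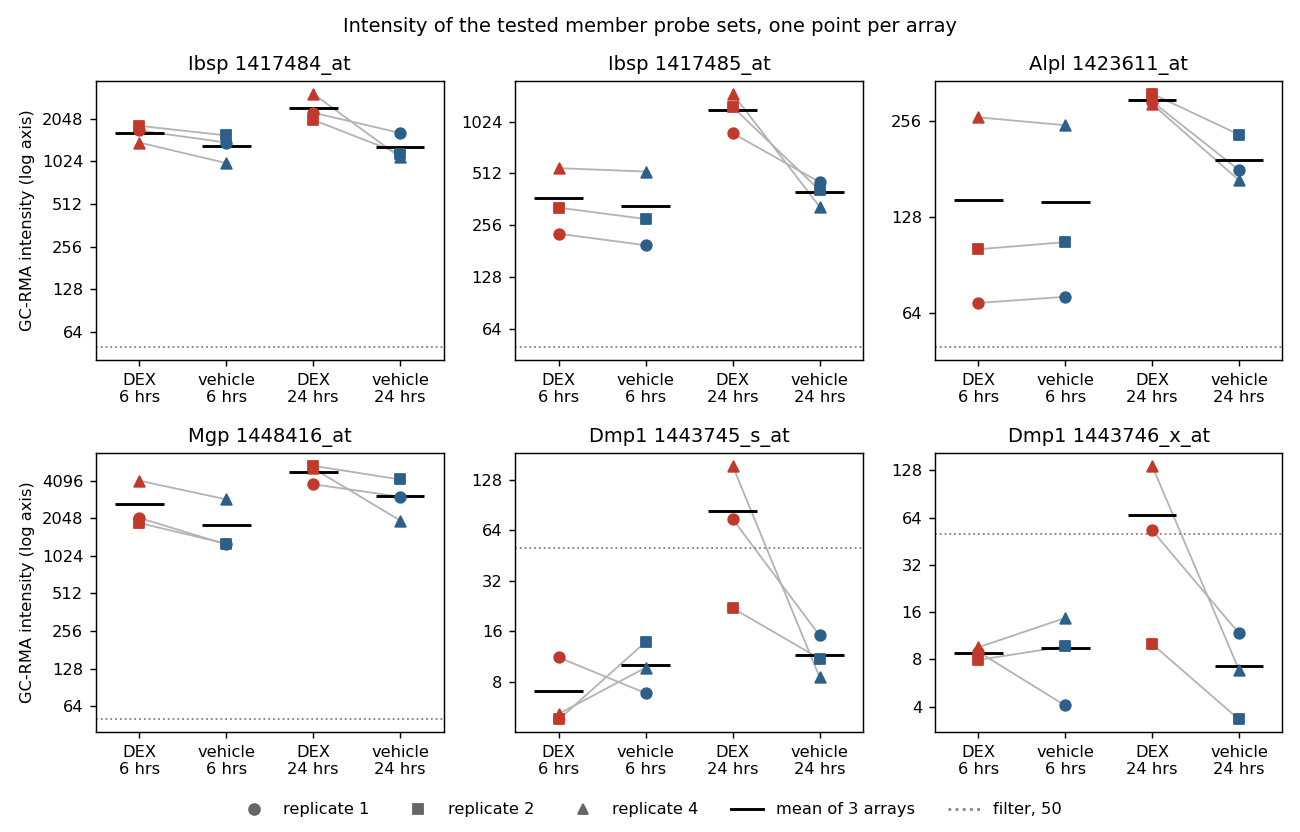
GC-RMA intensity on a log2-spaced axis of the 6 tested member probe sets with 1 symbol in the 12 arrays, in the order DEX and vehicle at 6 hrs and DEX and vehicle at 24 hrs. Symbols are replicates, grey lines join the arrays of a pair, black bars are means of 3 arrays, and the dotted line is the filter at 50. DEX 24 hrs stands above vehicle 24 hrs without overlap for both Ibsp probe sets, Alpl and Dmp1 1443745_s_at, the last of which passed the filter only through DEX 24 hrs.

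Ibsp encodes bone sialoprotein, which can start crystal formation and carries an integrin-binding motif. Its probe set 1417485_at had intensities of 876, 1246 and 1485 in DEX 24 hrs, against 455, 409 and 329 in vehicle 24 hrs. The lowest DEX array was above the highest vehicle array, and the difference was largest in replicate 4 and smallest in replicate 1. The fitted difference was 1.58 on the log2 scale (SE 0.21, n = 3 pairs), a 2.98-fold level, with an adjusted p of 0.0152 in limma. Without the block the adjusted p was 0.228.

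At 6 hrs the same probe set measured 228, 324 and 549 with DEX and 196, 278 and 525 with vehicle. The spread between replicates was wider than the difference in any pair, and the log2 difference was 0.17 (SE 0.21, adjusted p = 0.814 in limma). Each of the 3 pairs was nevertheless higher with DEX, by 0.065 to 0.222 on the log2 scale. Over both times the log2 difference was 0.87 (SE 0.15) with an adjusted p of 0.0247 in limma. The DEX effect was 1.41 larger at 24 hrs than at 6 hrs on the log2 scale (SE 0.30), which did not pass over all probe sets (adjusted p = 0.278 in limma).

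The other Ibsp probe set, 1417484_at, measured 2252, 2003 and 3063 in DEX 24 hrs, against 1622, 1157 and 1091 in vehicle 24 hrs. Its groups did not overlap either, and replicate 4 again had the largest difference. The log2 difference of 0.92 (SE 0.19), a 1.89-fold level, missed the threshold with an adjusted p of 0.0566 in limma. At 6 hrs it measured 1687, 1820 and 1388 with DEX and 1388, 1557 and 994 with vehicle, higher with DEX in each pair, and the log2 difference was 0.33 (SE 0.19, adjusted p = 0.577 in limma). Over both times the difference was 0.62 (SE 0.13, adjusted p = 0.0562 in limma). The 2 Ibsp probe sets therefore had the same direction in 6 of 6 pairs and lay on different sides of the threshold at 24 hrs and over both times. With the hybridization day as the block both passed, 1417484_at with an adjusted p of 0.0304 at 24 hrs and 0.0278 over both times and 1417485_at with 0.011 and 0.0224 in limma. All 6 pairs were also higher for Mgp, and for 4.29% of all tested probe sets.

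Dmp1 encodes the acidic matrix protein of osteocytes and dentin, and its level was near background in 3 of the 4 groups. Probe set 1443745_s_at measured 74.7, 22.0 and 155 in DEX 24 hrs, against 15.1, 11.0 and 8.54 in vehicle 24 hrs. The DEX arrays were above every vehicle array, but they differed among themselves by more than the vehicle arrays did, and replicate 2 stayed under 50. The log2 difference was 2.50 (SE 0.60), a 5.64-fold level, with an adjusted p of 0.0892 in limma, and it was 1.65 without the pair of replicate 4. At 6 hrs its arrays measured 11.2, 4.78 and 5.17 with DEX and 6.85, 13.9 and 9.73 with vehicle, with 1 of 3 pairs higher.

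Probe set 1443746_x_at measured 53.1, 10.0 and 137 in DEX 24 hrs, against 11.7, 3.32 and 6.88 in vehicle 24 hrs. Here the groups overlapped, since the DEX array of replicate 2 was below the vehicle array of replicate 1. The log2 difference was 2.70 (SE 0.52), with an adjusted p of 0.0501 in limma. The remaining Dmp1 probe set, 1426005_at, did not pass the filter and measured 34.9, 9.39 and 58.9 in DEX 24 hrs and 14.1, 3.92 and 5.73 in vehicle 24 hrs. All 3 Dmp1 probe sets were higher with DEX in 3 of 3 pairs at 24 hrs and in 1 of 3 pairs at 6 hrs, in each with replicate 2 the lowest DEX array at 24 hrs. Since the vehicle values were below 50, the size of these folds is uncertain, and with 16 added to each intensity the log2 differences shrank to 1.61 and 1.49. With 16 added, or with the hybridization day as the block (adjusted p = 0.0466 for 1443745_s_at and 0.025 for 1443746_x_at in limma), both tested probe sets passed the threshold at 24 hrs, but they were tested only because that DEX group reached 50, so that these calls are partly set by the filter. The letters s and x in the names mark probes that the platform lists as shared by transcripts or prone to bind others.

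Mepe and Phex did not reach the level at which they could be tested. Mepe 1421650_at measured 22.1, 12.2 and 71.3 in DEX 24 hrs, against 25.4, 23.9 and 23.7 in vehicle 24 hrs, and only the DEX array of replicate 4 exceeded 50. In a fit without the filter its log2 difference was 0.14 (SE 0.65) at 24 hrs and 0.74 (SE 0.65) at 6 hrs, with adjusted p of 0.966 and 0.876 in limma. Phex, the X-linked gene whose loss causes hypophosphatemic rickets, had 2 probe sets with no array above 25.8. Their log2 differences without the filter were 0.37 and 0.04 at 24 hrs, with SE of 0.51 and 0.57 and adjusted p of 0.858 and 0.989 in limma. The DEX array of replicate 4 at 24 hrs thus held the highest intensity of the 12 for both Ibsp, all 3 Dmp1 and the Mepe probe set, and for 1 of the Phex probe sets.

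Alpl rose at 24 hrs. Probe set 1423611_at measured 295, 312 and 290 in DEX 24 hrs, against 180, 232 and 167 in vehicle 24 hrs. The 3 DEX arrays lay close together and all above the vehicle arrays. The log2 difference was 0.64 (SE 0.12), a 1.56-fold level, with an adjusted p of 0.0409 in limma, and without the block the adjusted p was 1.00. At 6 hrs the arrays measured 68.9, 101 and 263 with DEX and 72.0, 107 and 248 with vehicle, so that replicates differed far more than treatments, and the log2 difference was -0.02 (SE 0.12, adjusted p = 0.967 in limma). The DEX effect was 0.66 larger at 24 than at 6 hrs (SE 0.17, adjusted p = 0.281 in limma), and over both times it was 0.31 (SE 0.08, adjusted p = 0.111 in limma).

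The call for Alpl at 24 hrs was lost when any one of the 6 pairs was left out, those of 6 hrs included (adjusted p = 0.0592 to 0.2 in limma), with the hybridization day as the block (0.132) and without the filter (0.303), while the log2 difference stayed between 0.57 and 0.75 on leaving out pairs. The call for Ibsp 1417485_at at 24 hrs was lost without replicate 2 (0.1) and without replicate 4 of that time (0.056) and without the filter (0.21), with log2 differences of 1.28 to 1.89 on leaving out pairs. Over both times its call was lost without any one of the 6 hrs pairs (0.0693 to 0.0854), without replicate 2 at 24 hrs (0.0889) and without the filter (0.226).

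The probe set shared by Zfp652 and Phospho1, which are neighbours on chromosome 11, differed in direction between the times. It measured 142, 115 and 201 in DEX 24 hrs, against 77.6, 95.3 and 60.0 in vehicle 24 hrs, with the groups apart and 3 of 3 pairs higher. At 6 hrs it measured 4.06, 2.48 and 44.3 with DEX and 6.21, 17.9 and 60.4 with vehicle, with 3 of 3 pairs lower. The log2 difference was 0.96 (SE 0.47, adjusted p = 0.354 in limma) at 24 hrs and -1.30 (SE 0.47, adjusted p = 0.353 in limma) at 6 hrs, and the effects differed by 2.26 (SE 0.67, adjusted p = 0.307 in limma). Of all tested probe sets 2.83% were lower in 3 of 3 pairs at 6 hrs and higher in 3 of 3 pairs at 24 hrs. Which of the 2 genes the signal comes from cannot be told apart.

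Mgp had the same direction at both times. Probe set 1448416_at measured 2063, 1879 and 4097 in DEX 6 hrs, against 1263, 1281 and 2904 in vehicle 6 hrs, and 3839, 5398 and 5154 in DEX 24 hrs, against 3045, 4193 and 1965 in vehicle 24 hrs. Each DEX array was above its own vehicle array, while the groups overlapped at both times. The log2 differences were 0.59 at 6 hrs and 0.70 at 24 hrs (SE 0.21 each, adjusted p = 0.345 and 0.154 in limma). At 24 hrs the pairs ranged from 0.334 to 1.39, and without that of replicate 4 the difference was 0.35 (adjusted p = 0.378 in limma). Over both times it was 0.64 (SE 0.15, adjusted p = 0.0722 in limma), a 1.56-fold level. With the hybridization day as the block the difference over both times passed (adjusted p = 0.0351).

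**Figure D2:**
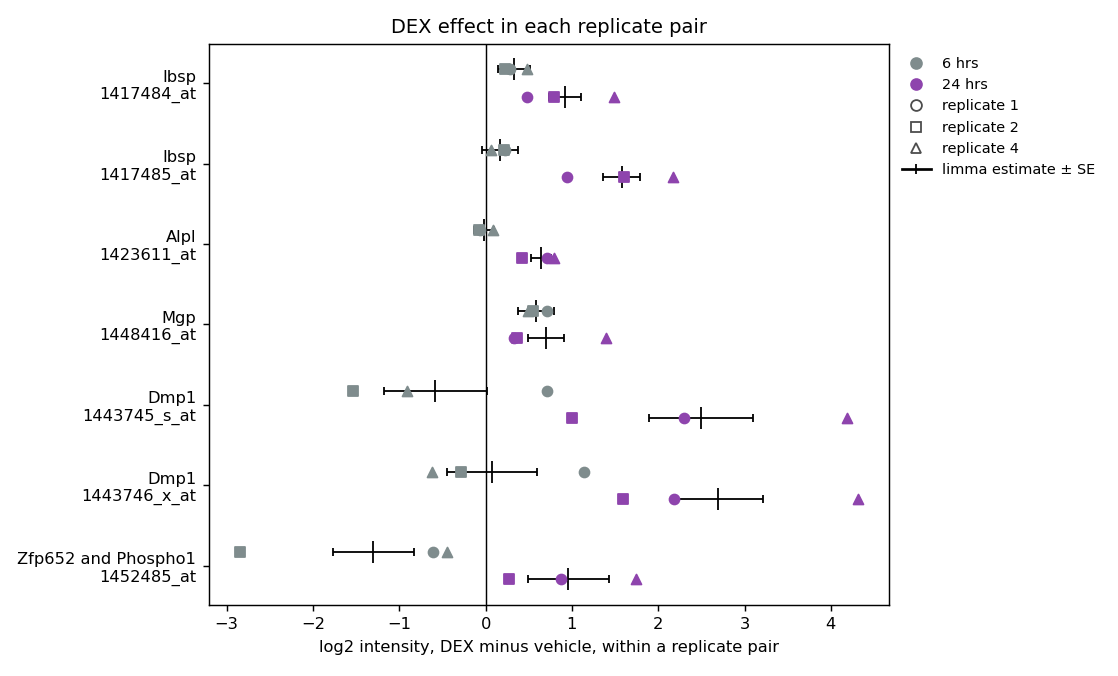
Difference in log2 intensity, DEX minus vehicle, of each replicate pair (symbols) at 6 hrs (grey) and 24 hrs (purple), with the limma estimate ± SE as black bars, for the 6 tested member probe sets and the probe set shared by Zfp652 and Phospho1. At 24 hrs all 3 pairs lie right of 0 for each of the 7 probe sets, and at 6 hrs this holds for Ibsp and Mgp.

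Groups of 3 arrays that did not overlap, with DEX above vehicle, were seen at 24 hrs for 3 of the 4 tested member probe sets other than those of Dmp1, 2 of Ibsp and the one of Alpl, against 8.45% of all tested probe sets. At 6 hrs they were seen for 0 of these 4, against 3.04% of all. By order of the fitted log2 difference at 24 hrs these 4 ran from Ibsp (1.58 and 0.92) to Mgp (0.70) and Alpl (0.64), and the Dmp1 probe sets were given no place, since their vehicle values lay near background. Mgp and Alpl differed by less than their SE.

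The arrays had been hybridized on 4 days, read from the array files: day 3 held replicates 1 and 2 at 6 hrs, day 4 replicate 4 at 6 hrs, day 1 replicate 2 at 24 hrs, and day 2 replicates 1 and 4 at 24 hrs, each with its DEX and vehicle arrays. Time and day therefore cannot be told apart, and levels at 6 and 24 hrs were not compared. On the 4 arrays of day 3 the 3′ probe set of Gapdh exceeded the 5′ one by 0.486 to 0.743 on the log2 scale, against -0.331 to -0.222 on the other 8 arrays. On day 3 Alpl lay between 68.9 and 107, against 248 and 263 on day 4, and Ibsp 1417485_at between 196 and 324, against 525 and 549. The other Ibsp probe set was not lower on day 3, with 1388 to 1820 against 994 and 1388 on day 4. The part of RNA quality in the 6 hrs values was not tested. Within single days the log2 difference of Ibsp 1417485_at at 24 hrs was 1.61 on day 1 and 1.56 on day 2, that of Alpl was 0.43 and 0.75, and that of Dmp1 1443745_s_at was 1.00 and 3.24. Without the arrays of day 3 Ibsp 1417485_at kept its call at 24 hrs (adjusted p = 0.0475 in limma) and Alpl did not (0.0962).

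**Figure D3:**
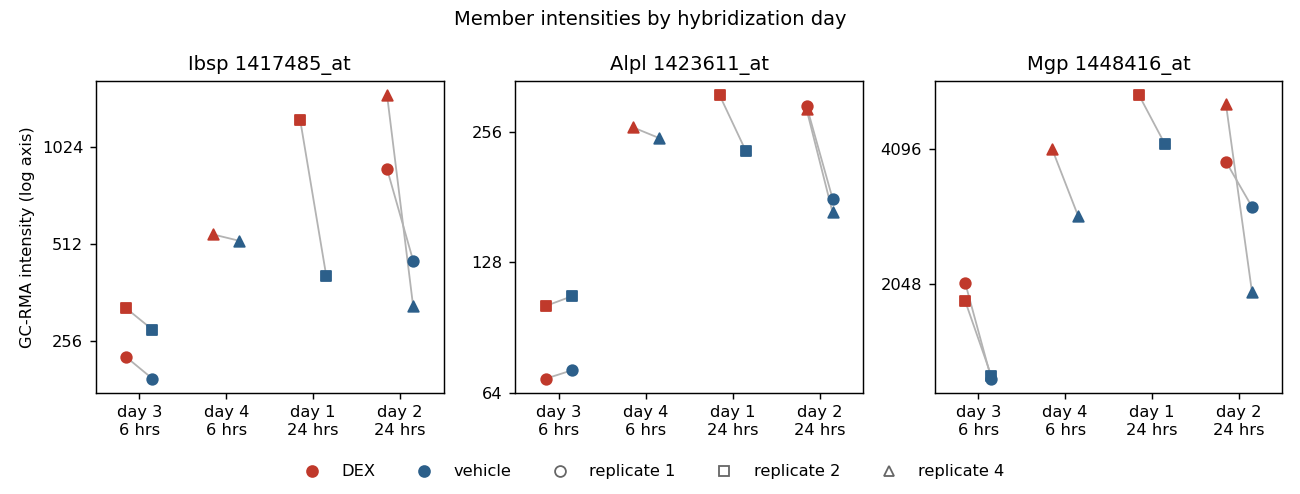
Intensity on a log2-spaced axis of Ibsp 1417485_at, Alpl and Mgp by hybridization day, with DEX left of vehicle within each day, symbols for replicates and lines joining pairs. On day 3 Alpl lies between 68.9 and 107 in both treatments, and at 24 hrs every DEX point lies above its vehicle point.

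Other genes of mineral deposition were taken from 6 lists with 61 genes, of which 55 had a probe set of 1 symbol and 42 were tested. At 24 hrs 6 rose and 3 fell with DEX, against 2.15% of all tested probe sets called. At 6 hrs 2 rose and 1 fell, against 0.904%, and over both times 6 rose and 3 fell, against 3.20%. An unadjusted p under 0.05 in limma was reached by 2366 of all 20897 tested probe sets at 6 hrs and by 3575 at 24 hrs. Of the 42, Entpd1 passed the filter through DEX 24 hrs alone and Grem1 through the vehicle groups alone, and neither was among the calls. The median log2 difference of the 42 genes was 0.022 at 24 hrs and 0.054 at 6 hrs, against -0.03 and -0.01 over all tested probe sets. The lists were chosen with earlier results of these data known. Without the pair block Omd alone of the called genes of these lists passed, at 24 hrs and over both times.

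Among 9 tested genes of phosphate and pyrophosphate handling, 2 rose and 1 fell at 24 hrs, and 0 of 9 passed at 6 hrs (3 at an unadjusted p under 0.05). Smpd3, a neutral sphingomyelinase that yields phosphocholine and is needed for bone mineral in mice, measured 752, 1081 and 814 in DEX 24 hrs, against 350, 567 and 227 in vehicle 24 hrs. The groups did not overlap, and the log2 difference was 1.29 (SE 0.18, adjusted p = 0.0192 in limma). Ppa1, a cytosolic inorganic pyrophosphatase, rose by 0.63 (SE 0.11, adjusted p = 0.0347 in limma). Ank, through which cells release pyrophosphate precursors, measured 430, 367 and 370 in DEX 24 hrs, against 781, 672 and 544 in vehicle 24 hrs. It fell by 0.76 (SE 0.13, adjusted p = 0.0327 in limma) and was lower with DEX in 6 of 6 pairs. Without the block the adjusted p of Smpd3, Ppa1 and Ank at 24 hrs was 0.706, 0.173 and 0.64.

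Of 6 tested vitamin K-dependent proteins and their enzymes, 2 rose at 24 hrs and 0 fell. Gas6, a ligand of receptor tyrosine kinases that carries Gla residues as Mgp does, rose by 1.11 at 24 hrs and by 0.79 at 6 hrs (SE 0.11 each, adjusted p = 0.005 and 0.0261 in limma). Ucma, a Gla-rich protein of growth plate chondrocytes, measured 915, 1216 and 976 in DEX 24 hrs, against 405, 770 and 305 in vehicle 24 hrs, and rose by 1.17 (SE 0.19, adjusted p = 0.0294 in limma). The carboxylase gene Ggcx, whose product adds the Gla residues, had a log2 difference of 0.19 at 24 hrs, which did not pass. Without the block the adjusted p of Gas6 and Ucma at 24 hrs was 0.917 and 0.896.

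Of 5 tested secretory kinases and phosphate-regulating hormones, Pth1r, the receptor of parathyroid hormone and its related protein, rose at 24 hrs by 0.89 (SE 0.13, adjusted p = 0.0196 in limma, 0.851 without the block). Fam20c, the kinase that phosphorylates SIBLING proteins, had a log2 difference of 0.61 at 24 hrs (SE 0.13, adjusted p = 0.0584 in limma) and -0.31 at 6 hrs. Dspp, the SIBLING gene that is first in the row on chromosome 5, was also placed in this list. It had group means between 1.44 and 2.83 and was not tested.

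Among 6 tested secreted regulators of mineral, Omd rose and Tnfrsf11b fell at both times. Omd, a keratan sulfate proteoglycan of bone matrix, measured 1185, 1361 and 1157 in DEX 24 hrs, against 233, 279 and 272 in vehicle 24 hrs, and 271, 276 and 394 in DEX 6 hrs, against 164, 164 and 182 in vehicle 6 hrs. The log2 difference was 2.24 at 24 hrs and 0.86 at 6 hrs (SE 0.13 each, adjusted p = 5.87e-04 and 0.031 in limma), and at 24 hrs it passed without the block as well (6.96e-04). Tnfrsf11b, the decoy receptor osteoprotegerin, measured 412, 587 and 432 in DEX 24 hrs, against 1137, 1181 and 753 in vehicle 24 hrs, with log2 differences of -1.09 at 24 hrs and -1.15 at 6 hrs (SE 0.19 each, adjusted p = 0.0366 and 0.0499 in limma, 0.544 and 0.752 without the block).

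Of 9 tested genes of matrix vesicles and calcium handling, Mmp3, a matrix metalloproteinase, fell at 24 hrs by 0.95 (SE 0.13, adjusted p = 0.0174 in limma, 0.954 without the block). Of 7 tested receptor genes for SIBLING proteins, 0 passed at 24 hrs (3 at an unadjusted p under 0.05), and Itga5, a subunit of the fibronectin receptor, rose over both times by 0.97 (SE 0.14, adjusted p = 0.0141 in limma, 1.00 without the block). On day 3 Itga5 measured 50.4 and 74.0 with DEX and 34.8 and 24.3 with vehicle, against 1341 with DEX and 736 with vehicle on day 4.

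**Figure D4:**
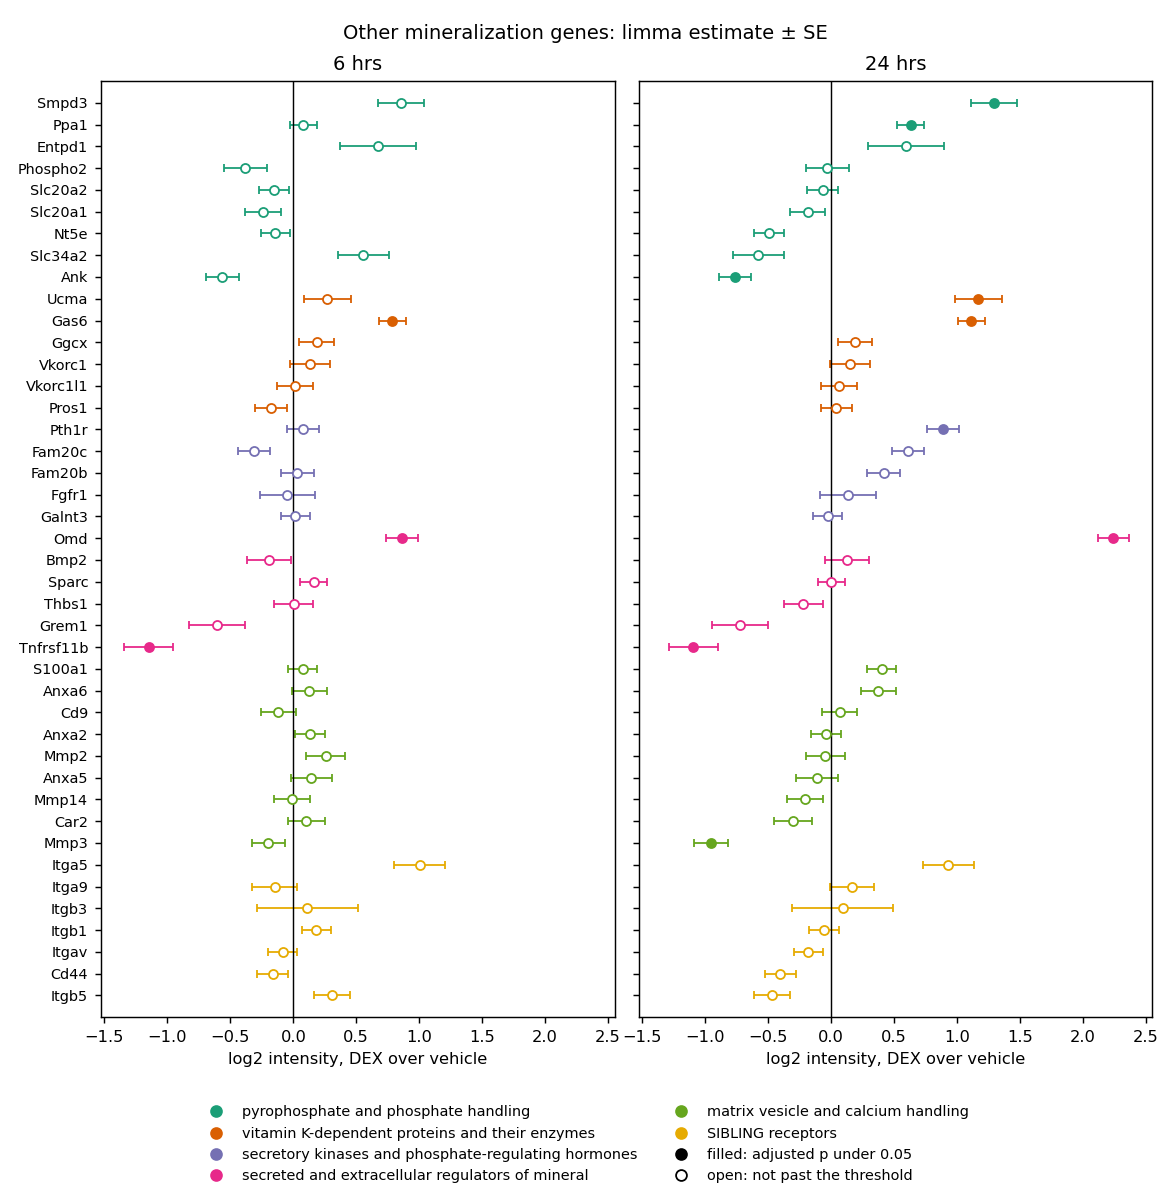
Limma estimate of the log2 difference, DEX over vehicle, with SE for the 42 tested genes of the 6 lists at 6 hrs (left) and 24 hrs (right), coloured by list, with filled points past the threshold. Omd is the point farthest right at 24 hrs (2.24), and most genes have open points at both times.

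A list of 7 glucocorticoid-induced genes served as a check of the labels. At 6 hrs and at 24 hrs 6 of the 7 rose, and over both times all 7 did. Tsc22d3 and Fkbp5 rose at 24 hrs by 2.89 and 1.95 on the log2 scale. Klf15 and Zbtb16 had means of 234 and 281 in DEX 24 hrs, against 13.2 and 36.5 in vehicle 24 hrs, passed the filter through the DEX groups alone, and have folds of uncertain size. Cartilage markers were high throughout, with group means of Col2a1 between 5345 and 6751, and 0 of 10 passed at 24 hrs in limma (4 at an unadjusted p under 0.05). Their median log2 difference at 24 hrs was 0.27, with 9 of 10 above 0. Of 6 tested genes listed for hypertrophic chondrocytes 2 passed at 24 hrs in limma, against 2.15% of all tested probe sets called. An unadjusted p under 0.05 was reached by 5 of the 6, and by 3575 of all 20897 tested probe sets. The 6 had a median log2 difference of 0.53, against -0.03 over all tested probe sets. Pth1r and the channel gene Panx3 rose, Panx3 by 0.60 (SE 0.11, adjusted p = 0.0385 in limma, 0.503 without the block). Pth1r is also the called gene of the secretory kinases and phosphate-regulating hormones, so that it is counted in both lists. The log2 difference was 0.95 for Ihh (adjusted p = 0.0611), 0.45 for Mef2c (0.1) and 0.41 for Col10a1 (0.117 in limma), each higher in 3 of 3 pairs, and 0.05 for Mmp13. At 24 hrs all 6 hypertrophic markers and 9 of 10 cartilage markers had log2 differences above 0, some of them barely. Mmp13 was higher with DEX in 1 of 3 pairs, and Acan and Col9a1 had log2 differences of 0.04 each. Other lists went the other way, with 1 of 6 macrophage genes and 1 of 7 skeletal muscle genes above 0. The part of hypertrophic or other chondrocytes in the member values was not tested.

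Of the markers of bone-forming cells, Col1a1 measured 3633 to 5103 in DEX 24 hrs, against 3996 to 4407 in vehicle 24 hrs. At 6 hrs it measured 151.7 and 204.0 with DEX and 153.7 and 248.5 with vehicle in replicates 1 and 2, those of day 3, against 5415 with DEX and 5786 with vehicle in replicate 4, so that its 6 hrs means rest on 1 array each. Group means of Sp7 lay between 128 and 200. The sum over 8 osteoblast genes lay between 8401 and 11713 in DEX 24 hrs, against 9186 to 10263 in vehicle 24 hrs, and between 3914 and 11926 in DEX 6 hrs, against 4268 to 11958 in vehicle 6 hrs. Of 5 tested osteoblast genes 0 passed at 24 hrs (1 at an unadjusted p under 0.05, Ifitm5). The log2 differences were -0.05 for Col1a1, -0.05 for Col1a2, 0.28 for Sp7, 0.20 for Dlx5 and 1.57 for Ifitm5. Their median of 0.20 counts Ifitm5, which passed the filter through DEX 24 hrs alone, so that this median is partly set by the filter. Without Ifitm5 the values ran from -0.05 to 0.28. Ifitm5, a membrane protein of bone-forming cells, measured 79.1, 26.0 and 133 in DEX 24 hrs, against 12.9, 10.3 and 78.1 in vehicle 24 hrs. Its log2 difference was 1.57 at 24 hrs (SE 0.31, adjusted p = 0.0537 in limma), higher in 3 of 3 pairs. Over both times it was 1.21 (SE 0.22, adjusted p = 0.0325 in limma, 0.954 without the block). Ifitm5 passed the filter through DEX 24 hrs alone, so that both differences are partly set by the filter. As for Dmp1, replicate 4 was the highest DEX array and replicate 2 the lowest.

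Of the osteocyte genes, Sost and Fgf23 had group means under 16 and were not tested, and Pdpn fell over both times by 0.63 (SE 0.09, adjusted p = 0.0141 in limma, 0.231 without the block). The sum over the 4 osteocyte genes lay between 819 and 1060 in DEX 24 hrs, against 1061 to 1255 in vehicle 24 hrs, so that the ranges nearly touch. It was made up almost wholly of Mmp14 (means of 730 in DEX 24 hrs and 843 in vehicle 24 hrs) and Pdpn (215 and 303). Mmp14 is also among the genes of matrix vesicles and calcium handling, so that the sum is not a measure of osteocytes alone. None of the tested genes of osteoclasts (3), macrophages (6), endothelium (1) and skeletal muscle (7) passed at either time, with 1, 3, 0 and 3 of them at an unadjusted p under 0.05 at 24 hrs. That level was reached by 3575 of all 20897 tested probe sets at 24 hrs. Of 7 genes of tendon and perichondrial fibroblasts Postn alone rose, by 1.40 at 24 hrs (SE 0.12, adjusted p = 0.00364 in limma, 0.573 without the block). The part of other cell types in the Ibsp, Dmp1 and Alpl values was not tested.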

How the data were processed

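Primary chondrocyte RNA was measured on 12 arrays of 45101 probe sets. The authors made the deposited linear intensity values with GC-RMA in GeneSpring (GCRMA in the submitters' processing notes, with no version named). Array number and signal over background limit the precision, and the median intensity per array was 25.7 to 39.1. Symbols came from the platform table: 34958 probe sets had 1 symbol, 932 several and 9211 none listed. Their log2 values, with no pseudocount, were fitted with limma 3.58.1 in R 4.3.3 over all 12 arrays. Pairs came from the replicate digit within a time, since the methods speak of 3 independent cell isolations. The deviations from the group mean of a DEX array and the vehicle array of its number correlated by 0.632 to 0.863 at 6 hrs and 0.158 to 0.301 at 24 hrs. Arrays of unlike numbers were not correlated and the pairs also share hybridization days, so that these values cannot show whether the pairing is right. A gene stands for its tested probe set with the highest mean. Named are all members and, per list, up to 4 genes past the threshold by size. The rule also named, for members whose main probe set passed over both times, genes of like pair differences, and no member met it. The members and lists were chosen with earlier results of these data known. Alternatives were another block, filter, pseudocount, normalization or spread, gene means, pairs left out and a Welch test without pairs. That test compared DEX with vehicle within a time or over both, and is not the paper's Welch ANOVA. Fits were tested on simulated data. Python 3.11.15 and matplotlib 3.10.9 were used for tables and figures.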

Additional observations from a re-analysis of the deposited data

Results flagged for a closer look

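The probe set shared by Zfp652 and Phospho1 was lower with DEX in 3 of 3 pairs at 6 hrs and higher in 3 of 3 pairs at 24 hrs, and the effects differed by 2.26 on the log2 scale (24 minus 6 hrs, SE 0.67, adjusted p = 0.307 in limma), so that the difference between the times did not pass. On day 3, which holds 4 of the 6 arrays at 6 hrs, this probe set lay between 2.48 and 17.9, below the filter of 50. Groups of 3 arrays are too small for a search for single outlying samples.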

How the results depend on the processing

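Of 6 tested member probe sets, 2 passed at 24 hrs and 1 over both times. With no replicate block 0 and 0 passed, and leaving out the pairing changed these calls. With the hybridization day as a block 4 and 3 passed, with no filter 0 and 0, with 16 added 5 and 3, with a Welch test without pairs 0 and 0, and without day 3 (chosen after seeing the data) 1 and 0. The calls over all probe sets, which also differ between these settings, are given below. At 24 hrs 1 passed with only the arrays of that time, and 3 after quantile normalization, with each array centred on its median and with an intensity trend. With a minimum of 100, which leaves out Dmp1, 3 of 4 passed at 24 hrs and 3 of 4 over both times. Over both times 2 passed after quantile normalization and 3 with an intensity trend. The Dmp1 probe sets, tested through DEX 24 hrs alone, make up 2 of the 5 with 16 added, 2 of the 4 with the day as a block and 1 of the 3 after quantile normalization and after centring at 24 hrs. Leaving out single pairs gave 0 to 1 at 24 hrs and 0 to 1 over both times. Over all probe sets 189, 449, 668 and 1 were called at 6 hrs, at 24 hrs, over both times and for the difference (a probe set with no listed symbol). With no replicate block these were 47, 60, 156 and 0, with no filter 0, 9, 73 and 0, with the Welch test 0, 0 and 38 (127, 380 and 330 past the methods' unadjusted threshold), and without day 3 43, 272, 238 and 0. With an intensity trend they were 320 at 6 hrs, 780 at 24 hrs and 5 for the difference, with only the arrays of one time 40 and 272, and at 24 hrs 717 with a minimum of 100 and 743 with 16 added. At 24 hrs and over both times 455 and 600 were called with the day as a block, and 567 and 686 after quantile normalization. After centring 475 were called at 24 hrs. Over both times 952 were called with an intensity trend, 849 with 16 added, and 854 of 15679 tested with a minimum of 100. For the difference 0 were called with the day as a block or with gene means. Leaving out pairs gave 55 to 111, 103 to 357, 331 to 393 and 0 to 3. Directions turned only where the main value was small: Alpl at 6 hrs was 0.016 after quantile normalization, 0.082 without day 3 and -0.069 to 0.0090 without single pairs, Dmp1 1443746_x_at at 6 hrs was -0.017 with 16 added, -0.62 without day 3 and -0.45 to 0.42 without single pairs, and the Zfp652 and Phospho1 probe set over both times was 0.19 with 16 added, 0.26 without day 3 and -0.39 to 0.22 without single pairs. The difference of the Mgp effect was -0.24 to 0.29 without single pairs. Of 491 alternatives for single probe sets 428 kept direction and call or, within a day, lay within 1 SD of the main value. Most main values had not passed the threshold, and for these a kept call means staying short of it. The calls themselves held less often. Among alternatives with an adjusted p, Alpl at 24 hrs passed in 6 of 18. Ibsp 1417485_at passed in 12 of 17 at 24 hrs and in 8 of 16 over both times. Within-day values could not be had over both times or for the difference, since no day holds both times. The causes were not tested. The Dmp1, Mepe and Phex signals were limited by intensities near background.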
